A study of Ictidomys tridecemlineatus with 15 samples.

Results

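The 100 matrix rows most particular to horizontal cells (HC) were followed through the development of the retina of the 13-lined ground squirrel (13LGS), a diurnal rodent with a cone-rich retina. Counts of unique molecular identifiers (UMIs, molecules of mRNA) were summed per row over all cells of each annotated type and expressed as CPM (the UMIs of a row for every 1000000 UMIs of the sum). A row was scored as log2 of its CPM in HC plus 10 over its highest CPM in any other type plus 10, and the 100 highest scores among rows with at least 50 CPM in HC were taken. This left 100 members out of 34181 rows, of which 3039 reached 50 CPM in HC. The list of gene names has 30265 entries and is not paired with the rows, so members are given by row number counted from 1, and their functions, sequences and the HC label itself could not be checked against named marker genes.

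Horizontal cells are interneurons of the outer retina. They receive input from photoreceptor terminals and feed inhibition back to them and to bipolar cells, which sharpens contrast in the image. In rodents they are among the early-born neurons, arise from neurogenic progenitors that also give rise to ganglion cells, amacrine cells (AC) and cones, and migrate to their layer and extend processes while they mature.

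Whole retinas of untreated animals from captive dams and captive-bred litters were profiled by 10x 3′ single-cell RNA sequencing. The 14 libraries used came from 9 time points, with 1 library at embryonic day (E) 18, 2 each at E21, E24 and E26, 1 at postnatal day (P) 4, 2 each at P8 and P12, and 1 each at P17 and P21. Birth is at E27. The letters a and b separate the 2 libraries of a time point and carry no link to the replicate numbers in the labels. Nothing in the labels says that libraries came from separate animals, or how many animals each held, so the p-values below measure only the spread between these libraries.

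The 46474 cells used carried 12 type labels from the authors' clustering, and 2876 of them were HC. Of these, 2303 cells in 7 libraries (25 to 818 cells each) were embryonic and 573 were postnatal. The postnatal HC came from 6 libraries with 19 to 192 cells each, plus a single cell at P21 that entered no test. Depth and stage moved together: the embryonic HC sums ranged from 118668 to 3172199 UMIs and the postnatal ones from 39032 to 763366. In a check that matrix and cell table share their order, 183 of 191 held-out HC were most like the mean HC profile (95.8%), as were 129 of 2809 held-out cells of other types (4.59%). Over all types 87.9% of 3000 cells were most like their own type, against 13.4% after shuffling. In all, 263 cell barcodes occurred in more than 1 library, on 527 cells of which 33 were HC.

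The score falls off quickly within the list. The members were thus chosen by the measured difference between HC and the other types. The 12 leading rows scored above 2, which is 4.12-fold to 11.5-fold on the scale with 10 CPM added, 40 rows scored between 1 and 2, and the other 48 rows reached down to 1.39-fold. The raw CPM ratio of HC to the highest other type was at least 2 for 61 members and at least 4 for 18. The 100 members together made up 2.47% of all HC UMIs. Just inside the limit, row 32450 scored 0.47 with 81.0 CPM in HC against 55.6 CPM in bipolar cells, and row 20993 scored 0.47 with 87.6 CPM in HC against 60.5 CPM in Müller glia. Just outside it, row 10773 had 162 CPM in HC against 114 CPM in ganglion cells and row 26231 had 64.4 CPM against 43.7 CPM in bipolar cells, so nothing separates the last members from the next rows. These values are a description, with no test.

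**Figure D1:**
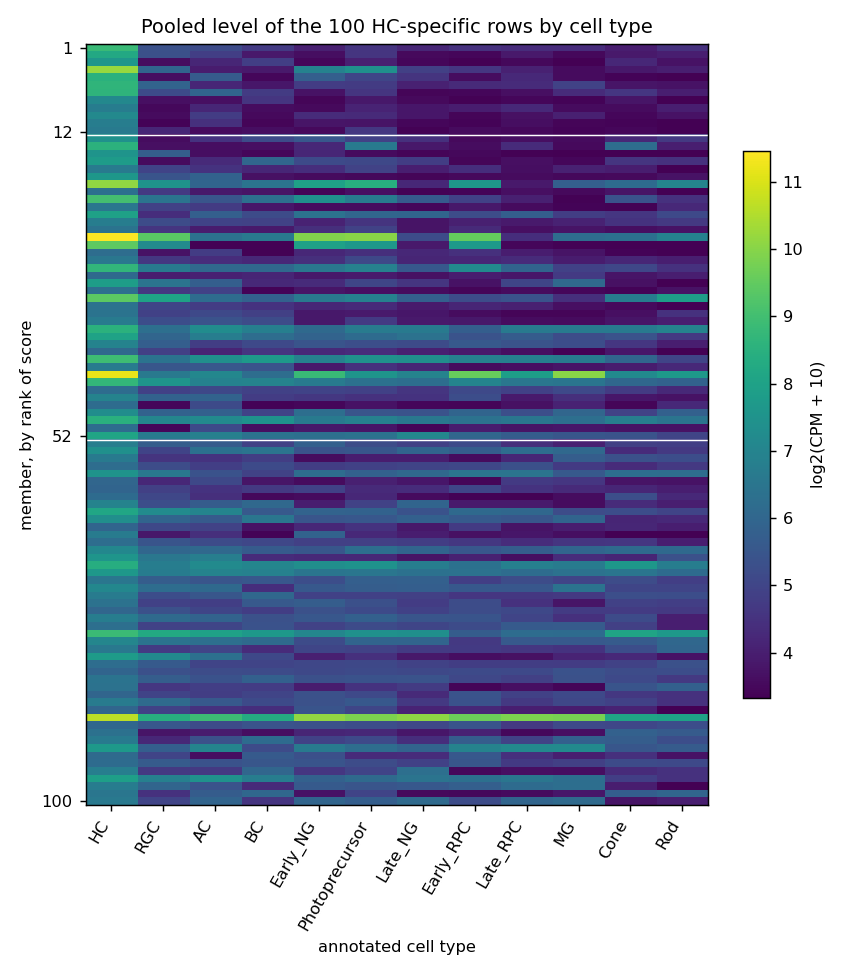
Pooled level of the 100 members (rows of the map, ordered by score, white lines after ranks 12 and 52) in the 12 annotated types (columns), as log2(CPM + 10) in colour. HC is the brightest column for every member by construction; below rank 52 the other columns come close, down to 1.39-fold at rank 100.

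Row 2526 led the list at 452 CPM in HC against 30.1 CPM in ganglion cells, its highest other type. It was followed by row 22290 at 294 CPM (29.9 CPM in ganglion cells) and row 32888 at 186 CPM (18.3 CPM in bipolar cells). Row 23508 had the highest level of the leading rows, 1168 CPM in HC, and 161 CPM in photoreceptor precursors. The next 6 rows by score were rows 32064, 23434, 1439, 32357, 13902 and 33052, with 357, 389, 380, 128, 97.4 and 132 CPM in HC. None of these 6 exceeded 52.6 CPM in another type. Rows 32094 and 1097, ranked 11 and 12, had 100.6 CPM and 92.3 CPM.

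The type with the next highest level varied from member to member. It was ganglion cells for 26 members, AC for 18, bipolar cells for 13, early-stage neurogenic progenitors (Early_NG) for 12, Müller glia for 10 and photoreceptor precursors for 8. The remaining 13 were split among cones, rods and the other progenitor labels. The highest level outside HC was that of row 18589 in Early_NG, at 1113 CPM against 1611 CPM in HC, and row 17801 came next among the members closest to Early_NG (243 CPM against 682 CPM). Among members with AC as the next type, rows 31907 (162 CPM against 232 CPM in HC) and 5409 (145 CPM against 359 CPM) were highest. Among those with precursors as the next type, rows 33363 (1019 CPM against 2817 CPM, the highest HC level of all members) and 17804 (337 CPM against 1106 CPM) led.

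The list depends on comparing shares of UMIs rather than UMIs. HC held 4650 UMIs per cell, fewer than ganglion cells, early-stage primary progenitors and Early_NG and more than the remaining types. By UMIs per cell 65 of the 100 members were highest in HC. With cells of every type thinned to 1000 UMIs, an embryonic HC held 14.6 members on average and a postnatal HC 16.2 (13.4 and 16.1 without rows 17801, 17804 and 33363, which varied between libraries as described below), against 2.44 to 7.55 in the other types. A UMI of at least 1 of the 12 leading rows was then found in 88.2% of embryonic and 99.8% of postnatal HC. The corresponding share was 4.45% in early-stage primary progenitors, 16.8% in embryonic Early_NG, 31.2% in embryonic precursors and 15.99% in postnatal AC. It was highest outside HC in the 55 thinned postnatal Early_NG, at 40.0%, and was 24.1% in embryonic AC and 16.4% and 20.1% in embryonic and postnatal ganglion cells. Without thinning these shares were 98.4% and 100% in HC and 29.1%, 49.1%, 67.0% and 33.7% in the first 4 of the other groups, at median depths of 4470 and 2862 UMIs in HC and 8052, 6282, 3668 and 2342 UMIs in the others. In ganglion cells, with median depths of 10072 and 8206 UMIs, the unthinned shares were 72.1% and 73.3%. Thinning left out 1 cell of each HC stage and 1 to 164 cells of the other groups that lost any.

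Members also differed in how many libraries bore out the pooled ranking, which is a description because the same counts chose them. In the 13 libraries with at least 10 HC, 61 to 98 of the 100 members were highest in HC by CPM, 75 to 98 in the embryonic libraries and 61 to 70 in the postnatal ones. The types with at least 10 cells numbered 4 to 8 in the embryonic libraries and 7 to 10 in the postnatal ones. HC was therefore not ranked against the same types before and after birth. In all 13 libraries, 29 members were highest in HC. Of the leading rows, 2526, 32888, 23508, 23434 and 1439 were among these 29, and rows 22290 and 32357 were highest in HC in 12 libraries. Rows 33052 and 32094 were highest in HC in 7 libraries each, the embryonic ones.

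Most members differed in level between embryonic and postnatal HC. The comparison sets E18 to E26 against P4 to P17 and does not place a change at birth. Compared over 7 embryonic and 6 postnatal libraries, all 100 members passed the filter on low counts, and 34 were higher and 46 lower after birth at a Benjamini-Hochberg adjusted p below 0.05 in edgeR's quasi-likelihood test. In this comparison 40.9% of the 7841 rows tested were called, 20.7% higher and 20.2% lower. Among the 3038 tested rows with at least 50 CPM in HC the share was 48.1%, with 20.2% higher and 27.8% lower. The median log2 fold was -0.39 over the members and -0.03 over all rows tested. With every sum thinned to the smallest, 25 members could be tested, and 11 were higher and 7 lower, against 37.3% of the 581 rows then tested. Members taken by their pooled HC level include rows held up by either stage alone, which the count cannot separate from the rule.

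Among the 12 leading rows, 8 were higher after birth, 3 were lower and 1 was not called. Of the 40 rows scoring 1 to 2, 12 were higher and 18 lower, and of the 48 rows below that, 14 were higher and 25 lower. The stages did not overlap for 18 of the 34 members called higher and 31 of the 46 called lower. The share of all rows tested without overlap is not given here, so these counts are no result about the members.

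**Figure D2:**
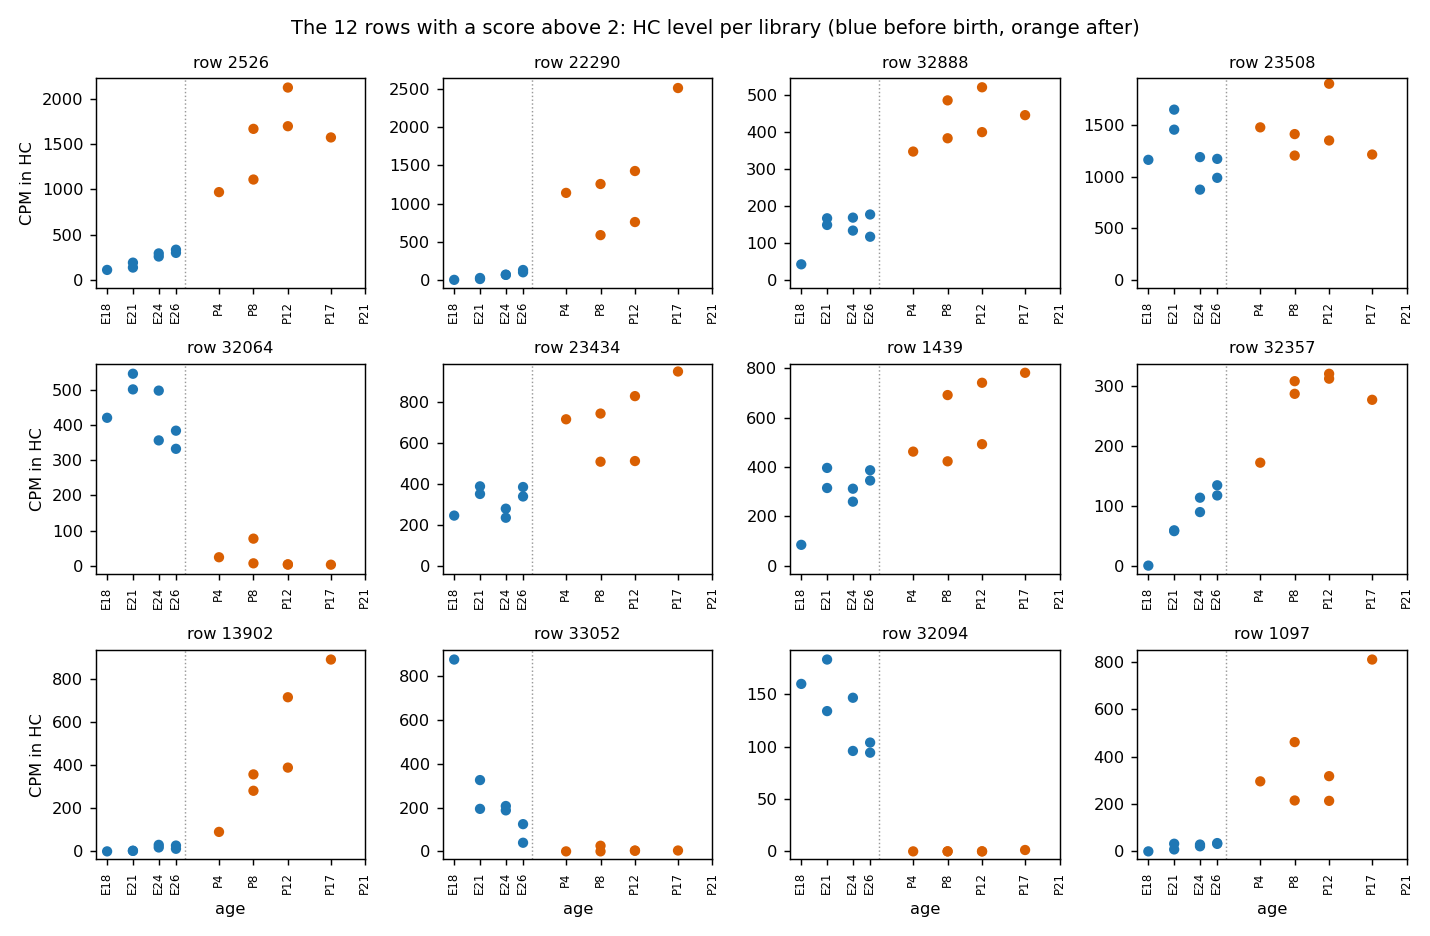
CPM in HC of the 12 leading rows against age, with 1 point per library (7 embryonic in blue, 6 postnatal in orange) and a dotted line at birth. Rows 2526, 22290, 13902 and 1097 lie higher in every postnatal library, rows 32064, 33052 and 32094 lie near 0 after birth, and row 23508 overlaps between the stages.

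Row 2526 lay at 110, 257 and 333 CPM (lowest, median and highest) in the embryonic HC and at 968, 1618 and 2121 CPM in the postnatal HC. Its log2 fold was 2.48 ± 0.25 (SE, adjusted p = 6.27e-08, edgeR). Row 22290 went from 0, 65.2 and 129 CPM to 586, 1197 and 2513 CPM, a log2 fold of 4.10 ± 0.44 (adjusted p = 1.80e-07, edgeR). Neither row overlapped between the stages.

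The largest increases with no overlap were in rows 13902 and 28093. Row 13902 had 0, 11.98 and 30.3 CPM before birth and 90.6, 374 and 892 CPM after it (log2 fold 4.65 ± 0.46 SE, adjusted p = 6.27e-08, edgeR). Row 28093, ranked 55, had 8.21, 16.9 and 32.0 CPM before birth and 205, 253 and 865 CPM after it (log2 fold 4.24 ± 0.35 SE, adjusted p = 4.29e-09, edgeR). The highest postnatal value of both rows was that of the P17 library.

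Other leading rows rose by less. Row 32888 had a median of 149 CPM before birth and 424 CPM after it, row 23434 of 338 CPM and 729 CPM, and row 32357 of 89.2 CPM and 297 CPM, all with no overlap of the stages. Row 1439 was also called higher (adjusted p = 0.00872, edgeR), with medians of 315 CPM and 592 CPM. Row 23508 was the leading row that was not called: it ranged from 874 to 1649 CPM before birth and from 1204 to 1900 CPM after it, a log2 fold of 0.09 ± 0.17 (SE, adjusted p = 0.704, edgeR).

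The rows that fell did so by different amounts. Row 8192 had a median of 603 CPM before birth and 383 CPM after it, and its stages overlapped. Row 32064 lay at 333, 421 and 547 CPM in embryonic HC and at 2.62, 5.09 and 76.9 CPM in postnatal HC (log2 fold -5.90 ± 0.38 SE, adjusted p = 1.20e-10, edgeR). The value of 76.9 CPM was that of the P8b library with 19 HC. Row 33052 fell from 39.4, 194 and 876 CPM to 0, 3.28 and 25.6 CPM. No library of one stage reached the range of the other for either row.

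Row 10246 had 105, 200 and 480 CPM in the embryonic HC libraries and 2214 UMIs in all. After birth it had 1 UMI, in the P17 library, which is a pooled level 341-fold lower with an exact 95% interval of 61.1-fold to 13474-fold for counting error only (adjusted p = 8.93e-09, edgeR). The neighbouring row 10245 had 111, 194 and 916 CPM before birth and 3 UMIs after it, 145-fold lower (interval 49.7-fold to 705-fold). Row 32094 had 94.4, 134 and 183 CPM before birth and 1 UMI after it, 207-fold lower (interval 37.1-fold to 8181-fold). Rows 10245 and 10246 are 1 of 6 pairs of adjacent matrix rows among the members. What adjacency means in this matrix is not given in the sources used here, and whether such rows share reads was not tested.

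Row 17801 was not detected in any postnatal HC library, where 3 UMIs would have been 1.68 CPM, and was therefore at least 468-fold lower than in the embryonic HC (adjusted p = 2.61e-05, edgeR). Its embryonic level ranged from 14.5 CPM in E26a to 1929 CPM in E26b, with a median of 345 CPM. Rows 17804 and 33363 varied in the same way: row 33363 lay between 81.6 CPM in E26a and 8433 CPM in E26b, with 4656 CPM in E24a. These 3 rows were the members that differed by more than 10-fold between the embryonic libraries in early-stage primary progenitors with 10 CPM added to each level, a choice made after their values were seen. In UMIs per cell, HC was close to the other types of its own library for them in E24a, where row 33363 had 20.9 UMIs per HC and 20.7 to 27.4 in the other types, and above them in E26b, with 47.3 against 16.8 to 20.3. The part of the library in the levels of these 3 rows was not tested.

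**Figure D3:**
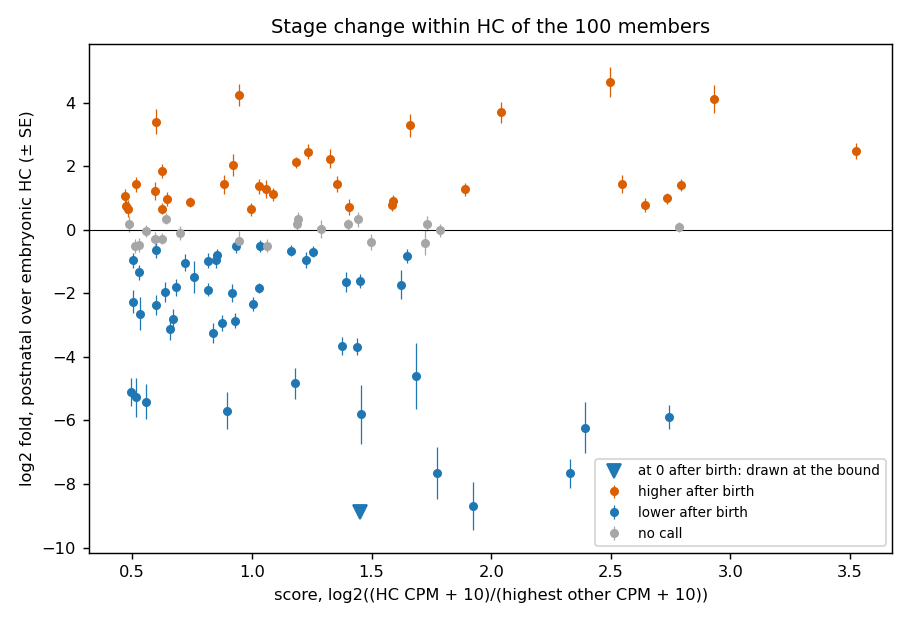
Log2 fold of each member between postnatal and embryonic HC (± SE, edgeR) against its score. Orange marks the 34 members called higher after birth, blue the 46 called lower and grey the 20 not called, and the triangle is row 17801 drawn at its bound. Increases and decreases both occur above a score of 2, from 1 to 2 and below 1, but no row scoring higher than row 32064 was called lower. The 8 orange rows above a score of 2 face 3 blue ones.

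Other cell types' rows also moved within HC between the stages. For each other type the same scoring gave 100 rows, and members were left out of them. The summed level of the AC rows in HC was 2140 to 3268 CPM in the embryonic libraries and 4981 to 7538 CPM in the postnatal ones, and that of the bipolar rows 1770 to 2277 CPM and 2726 to 4678 CPM. The Early_NG rows had 15546 to 18523 CPM before birth and 9700 to 13561 CPM after it, and the ganglion cell rows 12945 to 14634 CPM and 8769 to 12965 CPM. The precursor rows had the highest sums, 28952 to 34769 CPM and 19667 to 30923 CPM, where precursors themselves had 37866 to 48519 CPM before birth and 28519 to 41107 CPM after it. In their own types these lists reached 10671 to 18638 CPM (AC, after birth), 18298 to 34882 CPM (bipolar) and 33394 to 39197 CPM (Early_NG, before birth). Between 4 and 40 of the 100 AC rows were at 0 in a postnatal HC library. The part of these rows in the stage change of the members was not tested.

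The sum over all members depended on the 3 library-variable rows. All 100 members summed to 23579 ± 5195 CPM (SD, n = 7) in embryonic HC and to 21793 ± 3334 CPM (SD, n = 6) in postnatal HC, and the ranges of 17157 to 33135 CPM and 18107 to 27038 CPM overlapped. Without those 3 rows the sums were 19341 ± 1747 CPM and 21727 ± 3237 CPM, higher rather than lower after birth, and still overlapped. The 12 leading rows summed to 3215 ± 357 CPM before birth and 7110 ± 1530 CPM after it. Their ranges of 2652 to 3746 CPM and 5285 to 9461 CPM did not overlap. The leading rows were ranked by HC levels pooled over both stages, so a row held up by either stage alone could enter the set. The rise of their sum is therefore only a description and cannot be separated from the rule.

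The next comparison asked how the members changed while HC accumulated before birth. With age in days as a covariate over the 7 embryonic libraries, all 100 members passed the filter, 24 rose and 12 fell with age, and 4.99% of the 11690 rows tested were called, 3.17% higher and 1.81% lower (8.88% of those with at least 50 CPM in HC). The median slope was 0.04 log2 units per day over the members and 0.00 over all rows. The rule pooled HC UMIs, of which E18 held 118668 and E26a and E26b held 3172199 and 2628406. Rows with a high level in the deeper libraries were thus favoured. The counts by age, here and after birth, cannot be separated from the rule. Of the leading rows, 2526, 22290 and 32357 rose and row 33052 fell.

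Row 22290 had 0 CPM at E18, 10.9 and 24.4 CPM at E21, 68.4 and 65.2 CPM at E24 and 98.98 and 129 CPM at E26, a slope of 0.54 ± 0.06 log2 units per day (SE, adjusted p = 7.83e-06, edgeR). Row 14293 went from 0 CPM at E18 to 36.3 and 48.7 CPM at E26 (0.50 ± 0.07 per day, adjusted p = 0.000228, edgeR). Row 10245 fell from 523 CPM at E18 and 438 and 916 CPM at E21 to 131 and 111 CPM at E26, a slope of -0.35 ± 0.06 per day (adjusted p = 0.000407, edgeR). Row 25660 had 244 CPM at E18, 649 and 505 CPM at E21 and 60.8 and 69.2 CPM at E26 (-0.40 ± 0.08 per day, adjusted p = 0.00576, edgeR). For row 25660 the call was lost without E26a (adjusted p = 0.0513) and with DESeq2 (adjusted p = 0.0805). The calls of rows 22290, 14293 and 10245 held in each fit that left out a library.

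After birth the members' data were thinner. Of the 100 members, 75 passed the filter over the 6 postnatal libraries, 4 rose with age and 0 fell in edgeR's test, and 0.637% of the 4868 rows tested were called, 0.308% higher and 0.329% lower (0.826% of those with at least 50 CPM in HC). At an unadjusted p below 0.05 the count was 19 members, against 9.74% of all rows, and DESeq2 called 2 members. The count was 2 without P8a, 1 without P8b and 1 without P17. Simulated 4-fold changes over this age range were recovered in 49% of 200 rows, so that smaller changes would often be missed at this depth.

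Row 13902 rose after birth as it had between the stages: 90.6 CPM at P4, 358 and 282 CPM at P8, 717 and 390 CPM at P12 and 892 CPM at P17 (0.22 ± 0.04 log2 units per day, adjusted p = 0.00965, edgeR). Without P4 this call was lost (adjusted p = 0.265). Row 33363 had 4.77, 0, 51.2, 11.03, 5.77 and 173 CPM in P4, P8a, P8b, P12a, P12b and P17 (0.58 ± 0.09 per day, adjusted p = 0.00149, edgeR; 0.129 with DESeq2). Its P17 value was the highest of the 6, and rows 17804 and 33363 were also highest at P17 and P21 among the postnatal AC libraries.

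The members were then followed in the types the list was scored against. The rule used the highest other type over all ages together, as a level pooled by UMIs. That level limits a row mostly in the deeper libraries of a type. In AC, P4 held 2153142 UMIs and P17 and P21 held 7036779 and 5756350. Counts by age or stage within those types therefore cannot be separated from the rule. The 12 leading rows together summed to 150 to 250 CPM in the embryonic Early_NG libraries, 333 to 587 CPM in embryonic precursors, 163 to 275 CPM in embryonic ganglion cells and 43.0 to 61.0 CPM in early-stage primary progenitors. After birth they summed to 147 to 439 CPM in AC, 43.9 to 245 CPM in precursors and 9.97 to 154 CPM in late-stage neurogenic progenitors. No library of these types reached the 2652 CPM of the lowest HC library. This gap to HC is only a description, because the same counts chose the rows for it.

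**Figure D4:**
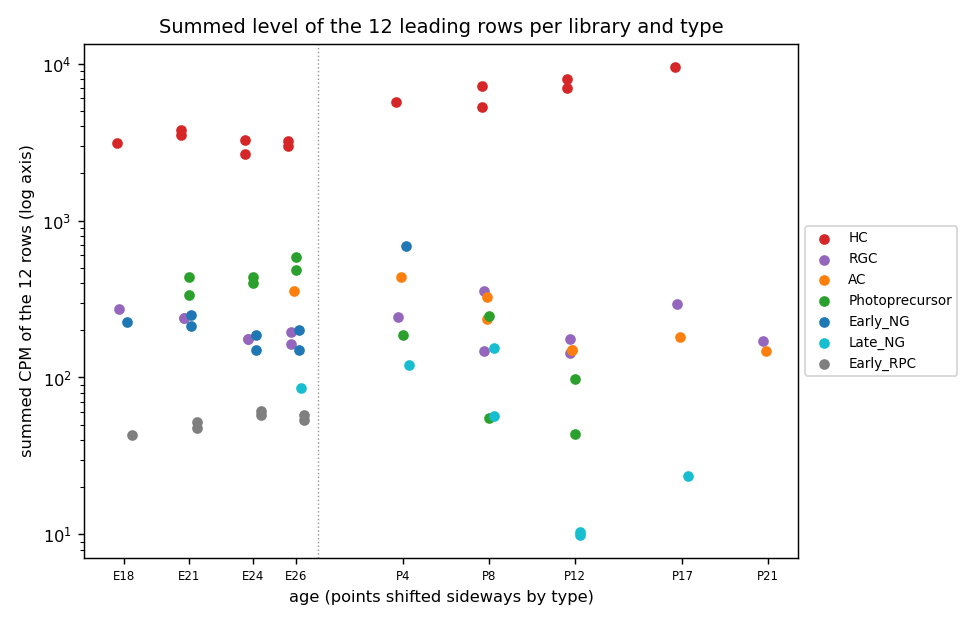
Summed CPM of the 12 leading rows (log axis) against age in 7 types, with 1 point for each library with at least 10 cells of the type. HC lies between 2652 and 9461 CPM at all ages, and the P4 point of Early_NG at 689 CPM is the highest of the other types. The rows were chosen for a high level in HC over the other types.

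Early_NG are progenitors annotated as about to form neurons. In the 7 embryonic libraries, 87 members passed the filter, and 39 were higher and 11 lower in Early_NG than in early-stage primary progenitors of the same library. Of all 13640 rows tested, 30.1% were called, 14.4% higher and 15.6% lower, and of those with at least 50 CPM in HC 39.3% were called, 28.9% higher and 10.4% lower. The median log2 fold of the members was 0.27 against 0.00 for all rows.

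Rows 10245 and 10246 differed most. Row 10246 lay at 23.2, 27.9 and 70.3 CPM (lowest, median and highest) in Early_NG and at 1.91 ± 0.68 CPM (SD, n = 7, TMM-scaled) in primary progenitors, a log2 fold of 4.30 ± 0.20 (SE, adjusted p = 1.55e-08, edgeR), and was higher in 7 of 7 libraries. Row 10245 lay at 12.4, 22.9 and 61.3 CPM in Early_NG and at 1.14 ± 0.54 CPM in primary progenitors (4.68 ± 0.23, adjusted p = 1.55e-08, edgeR). In the other direction, row 13902 was at 6.87 ± 4.10 CPM in primary progenitors and 1.72 ± 1.59 CPM in Early_NG (log2 fold -1.998 ± 0.327 SE, adjusted p = 0.000318, edgeR). Row 11459 was at 794 ± 253 CPM and 417 ± 314 CPM (-1.20 ± 0.19, adjusted p = 0.000203, edgeR), lower in Early_NG in 7 of 7 libraries although the ranges overlapped.

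With age before birth, 84 members passed the filter in Early_NG, 6 rose and 6 fell, with 7.54% of the 11248 rows tested called, 4.81% higher and 2.73% lower (9.30% of those with at least 50 CPM in HC). Without E18 the count was 3 members in all. Row 8192 fell from 365 CPM at E18 to 65.9 and 57.8 CPM at E26 (-0.33 ± 0.03 log2 units per day, adjusted p = 4.76e-05, edgeR). Row 31908 went from 3.36 CPM at E18 to 64.5 and 38.8 CPM at E26 (0.46 ± 0.06 per day, adjusted p = 0.000266, edgeR). Row 32094 went from 0 CPM to 3.69 and 8.25 CPM (0.46 ± 0.14 per day, adjusted p = 0.0491, edgeR), a call lost without E21a, E21b or E24a (adjusted p = 0.0735, 0.0872 and 0.0654). Row 25956 fell from 31.3 CPM to 6.64 and 13.2 CPM (-0.24 ± 0.06 per day, adjusted p = 0.0143, edgeR), a call lost without E18 (adjusted p = 0.407).

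The P4 library held 50 Early_NG, the only postnatal ones with at least 10 cells in a library. In their sum of 75431 UMIs, row 10246 had 411 CPM, row 32064 had 398 CPM, row 10245 had 199 CPM, row 33052 had 133 CPM and row 32094 had 79.5 CPM. In the HC of the same library these rows had 0, 23.8, 4.77, 0 and 0 CPM, and in its AC 65.0, 256, 41.3, 33.4 and 53.4 CPM. With 1 library this difference has no replicate check and no test. After thinning, row 32064 was found in 25.5% of the postnatal Early_NG, 3.07% of the embryonic Early_NG, 30.02% of the embryonic HC and 1.05% of the postnatal HC. Scored on the postnatal libraries alone, rows 32064, 33052 and 32094 had scores of -4.64, -3.34 and -2.89, with Early_NG as the highest other type.

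**Figure D5:**
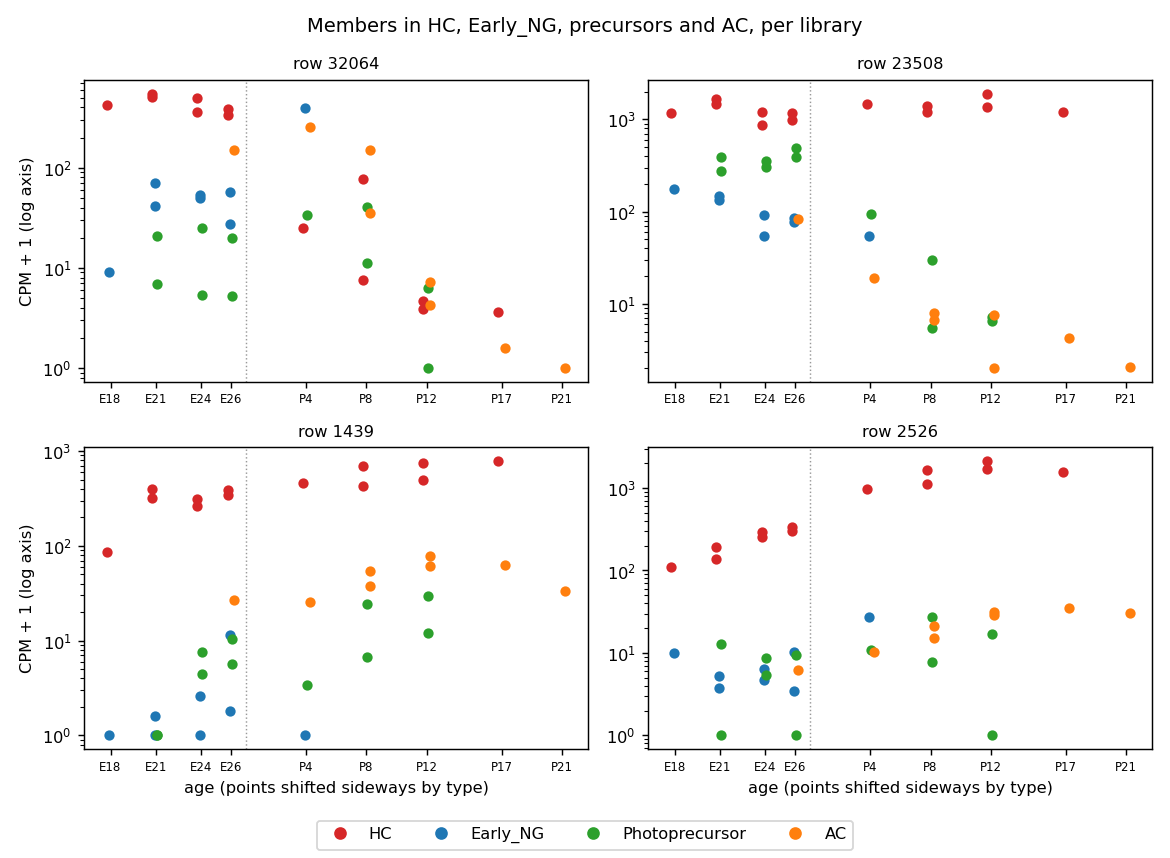
CPM + 1 (log axis) of 4 leading rows against age in HC, Early_NG, photoreceptor precursors and AC, with 1 point per library. Row 32064 is lower in HC (23.8 CPM) than in Early_NG (398 CPM) and AC (256 CPM) at P4, row 23508 lies lower after birth in precursors and overlaps between the stages in HC, and rows 1439 and 2526 stay highest in HC in every library.

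AC, inhibitory interneurons of the inner retina, were followed from P4 to P21. Of the 99 members that passed the filter over 7 libraries, 8 rose and 25 fell with age, against 9.44% of the 14925 rows tested, 5.48% higher and 3.96% lower (12.2% of those with at least 50 CPM in HC, 2.70% higher and 9.46% lower). The count was 19 members without P4 and 16 without P21. The median slope was -0.05 log2 units per day over the members and 0.00 over all rows. Of the 25 members that fell in AC, 16 were lower after birth in HC and 1 was higher, where 46 and 34 of all members were. These HC and AC sums came from shared postnatal libraries. The same split over all rows that fell in AC is not given here, so it is no result about the members.

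Row 32064 had 256 CPM in AC at P4, 150 and 34.5 CPM at P8, 6.27 and 3.22 CPM at P12, 0.57 CPM at P17 and 0 CPM at P21 (-0.79 ± 0.08 log2 units per day, adjusted p = 0.000441, edgeR). Row 10246 had 65.0 CPM at P4, 38.8 and 33.0 CPM at P8 and between 1.42 and 5.15 CPM from P12 on (-0.35 ± 0.06 per day, adjusted p = 0.00716, edgeR). Rows 32094 and 10245 also fell, with adjusted p = 0.00311 and 0.00414 in edgeR. Row 17804 rose from 0.93 CPM at P4 to 157 CPM at P17 and 65.5 CPM at P21 (0.55 ± 0.09 per day, adjusted p = 0.00376, edgeR), and row 33363 from 3.72 CPM to 170 and 89.99 CPM (0.28 ± 0.04 per day, adjusted p = 0.00363, edgeR). Both belong to the 3 library-variable rows. In late-stage neurogenic progenitors they had 0 and 1.59 CPM at P4 and 94.7 and 107 CPM at P17. The part of the library in these slopes was not tested.

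Against late-stage neurogenic progenitors of the same 6 postnatal libraries, 64 members passed the filter, and 24 were higher and 4 lower in AC. Of the 7576 rows tested, 37.1% were called, 18.7% higher and 18.4% lower (40.2% of those with at least 50 CPM in HC). In thinned sums 8 members could be tested and 2 were called, against 32.6% of 1394 rows. The median log2 fold was 0.38 over the members and 0.01 over all rows. Row 1439 had 1380 UMIs in AC, at 24.6 to 77.9 CPM, and 1 UMI in the progenitors, 144-fold higher pooled (interval 25.8-fold to 5690-fold, adjusted p = 2.15e-07, edgeR). Row 25965 had 1266 UMIs in AC and 2 in the progenitors, 66.0-fold higher (interval 18.2-fold to 546-fold, adjusted p = 1.25e-07, edgeR). Both rows were higher in AC in 6 of 6 libraries. Row 14101 was lower in AC in 6 of 6 libraries, at 24.8 ± 7.58 CPM against 59.6 ± 22.7 CPM (SD, n = 6, TMM-scaled), with a log2 fold of -1.38 ± 0.18 (SE, adjusted p = 1.95e-05, edgeR).

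In photoreceptor precursors, cells committed to become cones or rods, 71 members passed the filter over 6 embryonic and 5 postnatal libraries. After birth 5 were higher and 24 lower, and 24.7% of the 8571 rows tested were called, 13.4% higher and 11.3% lower (28.1% of those with at least 50 CPM in HC). In thinned sums 15 members could be tested and 7 were called, against 17.6% of 1757 rows. The median log2 fold was -0.42 over the members and 0.02 over all rows. Row 17801 was not detected in the 5 postnatal libraries and was at least 1060-fold lower (adjusted p = 4.76e-05, edgeR), from 19.8, 363 and 1083 CPM before birth. Row 33363 went from 10045 UMIs to 45, 373-fold lower pooled (log2 fold -8.39 ± 0.86 SE, adjusted p = 3.73e-06, edgeR). Both belong to the 3 library-variable rows described above, and they varied likewise between the embryonic precursor libraries.

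Rows 23508 and 1097 were the leading rows with precursors as their highest other type. Row 23508 had 275 to 487 CPM in the 6 embryonic precursor libraries and 94.0, 4.53, 28.6, 5.49 and 6.24 CPM in P4, P8a, P8b, P12a and P12b. It was called lower with a log2 fold of -3.66 ± 0.52 (SE, adjusted p = 9.11e-05, edgeR), the stages did not overlap, and its level in HC overlapped between the stages as given above. Row 1097 had 11.7 to 34.9 CPM in embryonic precursors and 0.89 to 12.2 CPM in postnatal ones, which overlapped, and was called lower (log2 fold -2.29 ± 0.46 SE, adjusted p = 0.00178, edgeR), whereas it was called higher in HC. Rows 10245 and 10246 were among the 5 members called higher in precursors (adjusted p = 0.0262 and 0.0343, edgeR), though their stages overlapped.

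Whether a member's stage change differed between HC and neurogenic progenitors was tested as an interaction over the 13 libraries with both classes, early- and late-stage neurogenic progenitors pooled. The pooled class was almost all Early_NG before birth and mostly late-stage after it, so annotation and stage cannot be told apart within it. All 100 members passed the filter, which a row could pass through HC alone, and members were chosen for high HC levels. The counts below are therefore not independent of the stage change within HC, and rows 22290, 1097 and 32094 had few UMIs in the progenitors. The change was more positive in HC for 23 members and more negative for 34, and 24.5% of the 9224 rows tested were called, 11.1% and 13.4% in the 2 directions. Among rows with at least 50 CPM in HC, 37.2% were called. In thinned sums 27 members could be tested and 10 were called, against 25.8% of 813 rows.

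Row 22290 rose in HC and had 35 UMIs before birth and 3 UMIs after it in the progenitors, where no library exceeded 6.22 CPM (TMM-scaled). The difference of the log2 folds was 4.88 ± 0.72 (SE, adjusted p = 7.88e-06, edgeR). This call was lost in thinned sums, and with so few UMIs in the progenitors the difference cannot be separated from the change within HC. Row 1097 had 0, 28.8 and 35.0 CPM before birth and 213, 306 and 810 CPM after it in HC, and 23 UMIs and 1 UMI in the progenitors (adjusted p = 0.000106, edgeR). Row 25956 went the opposite ways: it had a pooled level of 116 CPM in embryonic and 3.92 CPM in postnatal HC, and of 14.0 CPM in embryonic and 73.5 CPM in postnatal progenitors (difference -8.13 ± 0.50 SE, adjusted p = 1.01e-12, edgeR). Row 32094 fell from 1344 UMIs to 1 UMI in HC and stayed at 3.37 CPM and 3.50 CPM in the progenitors (adjusted p = 0.0012, edgeR). For rows 1097 and 32094 too, the difference cannot be separated from the change within HC.

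The choice of members rests on the mix of ages. With the rule applied to the embryonic libraries alone, 65 of the 100 members were chosen again, and with the postnatal libraries alone 45. In both lists were 31 members, 7 of them leading rows, and 21 members were in neither. Leaving out any 1 library kept 89 to 98 members, the lowest without P17. By embryonic counts alone 88 members scored above 0 and by postnatal counts alone 69, with 59 above 0 in both.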

How the data were processed

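The authors deposited UMI counts per gene row and cell, whole numbers that are not normalized, with a cell table of time points and types. Per the study's methods and the submitters' processing notes, reads were processed with Cell Ranger 3.1.0 on HiC_Itri_2 (the notes also list GRCm38), aggregated, and typed by cluster markers in Seurat 4.0.4. How cells were filtered and doublets removed is not given in the sources used here. No doublet caller was run here. P1 had 2 library suffixes but 1 labelled sample, so its 6920 cells (13.0%) were not used.

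Counts were summed per library and type with at least 10 cells. Sums were filtered (filterByExpr), scaled by TMM (trimmed mean of M-values) and tested with edgeR 4.0.16 (glmQLFTest) in R 4.3.3, the library as a block between types. A row was called at an adjusted p below 0.05 (Benjamini-Hochberg over all rows tested). DESeq2 1.42.0 was an alternative. Levels are CPM of the sums unless TMM-scaled. Named members were the 10 highest scores, ranks 99 to 102, the highest HC level, the 2 highest members with Early_NG, AC or precursors as the next type, and up to 2 non-overlapping members per direction with the largest change in each test. Other rows were named after their values were seen. Members and lists were chosen with earlier results of these data known. In simulated data, 4-fold changes in 200 rows were recovered at 49% (HC after birth) to 100%.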

Additional observations from a re-analysis of the deposited data

Results flagged for a closer look

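In 6 of 46 groups of 5 to 7 libraries, the highest or lowest library stood apart from the rest by Dixon's ratio, a flag that chance gives in about 1 in 20 groups. Row 33052 in embryonic HC was highest in E18 at 876 CPM, against 326 CPM in the next library, and that library held 25 HC. In postnatal HC, P8b with 19 HC was highest for row 32064 (76.9 CPM, next 23.8 CPM) and row 33052 (25.6 CPM, next 3.93 CPM), and these are 3 UMIs and 1 UMI of its 39032. In P17, row 33363 stood at 173 CPM (next 51.2 CPM) and row 10246 at 1.31 CPM, where the other libraries had 0. Row 32357 was lowest in P4 at 172 CPM, with 276 CPM in the next library.

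The interaction term was called for 57 of 100 members between HC and neurogenic progenitors, where 24.5% of the 9224 rows tested were called and 37.2% of those with at least 50 CPM in HC. Members were chosen for high HC levels and could pass the filter through HC alone, so the count is not independent of the rule. The progenitor class was almost all Early_NG before birth and mostly late-stage after it. The fitted differences of the log2 folds were 5.14 for row 1097, 4.88 for row 22290, -8.13 for row 25956 and -7.62 for row 32094. Those of rows 1097 and 32094 rest on 1 UMI in a group and are no bounds: without P4 the value of row 1097 was 7.48, and without P17 that of row 32094 was -10.3.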

How the results depend on the processing

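No paired analysis was possible because the cell names do not carry the labels' replicate numbers, so no replicate block could be fitted between time points (comparisons between types did pair the sums of each library). The balance of the stage change in HC depended on the setting. In the main test 34 members were higher and 46 lower after birth. Among the fewer members testable in thinned sums, more were higher than lower. The summed level of all members was lower after birth, and higher without the 3 library-variable rows, with overlapping ranges in both cases. Thinning every sum to the smallest sum left 8 to 89 members testable and gave 18 called members for the stage change in HC, 17 for HC age before birth, 2 for HC age after birth, 7 for Early_NG age, 29 for Early_NG against primary progenitors, 7 for precursors, 2 for AC against late neurogenic progenitors and 10 for the interaction. For HC age after birth, DESeq2 gave 2, no filter 8, and at least 30 cells 1. Without a filter, Early_NG age gave 24 and AC against late neurogenic progenitors 55, and without high-UMI cells (over 2 times the median UMI count) Early_NG age gave 7. The rows tested change with the setting. Where the share of all rows called in the same setting is not given, a count here or above is no result about the members. The rule kept 65 members on embryonic and 45 on postnatal libraries alone. Leaving out 1 library gave 1 to 6 called members for HC age after birth, 3 to 12 for Early_NG age and 16 to 35 for AC age. Other counts stayed within 1.5 times in all settings tried, including DESeq2's size factors. Among named members, row 33363 lost its HC call after birth with DESeq2 (adjusted p = 0.129), row 25956 its Early_NG call without high-UMI cells (adjusted p = 0.225), and row 22290 its interaction call in thinned sums (adjusted p = 1). Chosen after seeing the data, UMIs per cell in place of CPM kept 72 members, and leaving out libraries under 50000 UMIs gave 80 called in HC by stage. The cause of these shifts was not tested beyond the fewer members or libraries in each fit.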
